A study of Mus musculus with 12 samples.

Results

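Complex I of the respiratory chain (NADH:ubiquinone oxidoreductase) is described here through the 42 genes whose symbol starts with Nduf and that were measured in mouse brown adipose tissue, of 22180 genes in all. A gene was taken where a probe set carried its symbol and no other, and the brightest probe set over all arrays stood for the gene. Of the 42 genes, 40 belong to complex I, as 6 core subunits, 9 accessory subunits of the matrix arm, 17 accessory subunits of the membrane arm and 8 assembly factors named Ndufaf1 to Ndufaf8. The other 2 are Ndufa4, now assigned to complex IV, and its relative Ndufa4l2. Further symbols lay on probe sets shared between genes, and these, like the subunit Ndufb1, are not analysed here.

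The RNA came from brown fat of male mice 10 weeks old on standard chow, either with a knockout of Zbtb7b (KO) or wild type (WT), kept at 4 °C for 4 h (cold) or at 22 °C (room temperature). There were 3 arrays in each of the 4 groups, KO cold, WT cold, KO room and WT room, and 12 arrays in all. The labels used here do not give the knockout allele or the cell type in which the gene was deleted. The titles number biological replicates, but a further label numbers pools and names liver and a different knockout, so the animals behind an array are unknown and the p-values measure only the spread between these samples.

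Zbtb7b, a zinc finger transcription factor, had log2 signals of 2.96, 3.38 and 3.01 in KO cold and 4.36, 4.26 and 4.63 in WT cold, and of 3.62, 3.50 and 3.30 in KO room and 4.47, 4.52 and 4.76 in WT room. The KO arrays lay below the WT arrays at both temperatures, on average by 1.30 in the cold and 1.11 at room temperature. The 8 brown adipocyte markers averaged 8.45 to 10.7 per array and the 6 hepatocyte markers 3.40 to 3.89, where the median of all probe sets lay between 2.63 and 2.83. The 16 skeletal muscle markers were uneven within groups. Their mean was 8.85, 4.92 and 8.66 in KO cold, 5.77, 7.79 and 8.39 in WT cold, 9.15, 8.04 and 3.72 in KO room, and 3.63, 7.04 and 3.28 in WT room, so the 3 lowest arrays were 2 of WT room and 1 of KO room. Within groups, arrays correlated over probe sets at r = 0.970 to 0.986. KO cold replicate 1 had the lowest value of the 12 arrays for 18 of the 42 genes (42.9%), against 14.0% of all genes. In bulk tissue, fewer cells of a type and less RNA per cell cannot be told apart.

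Complex I takes electrons from NADH in the matrix and passes them through flavin and iron-sulphur clusters to ubiquinone while pumping protons across the inner membrane. In brown fat Ucp1 lets these protons return without ATP synthesis, so that the energy of respiration is released as heat. The core subunits carry the chemistry, the accessory subunits surround them, and assembly factors join intermediate pieces without remaining in the finished enzyme. The core subunits of the membrane arm are encoded by mitochondrial DNA and are not among these genes.

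The assembly factor Ndufaf4 had the largest cold difference of the 42 genes. Its promoter and that of Ndufaf5, the assembly factor with the next largest rise, are shown first because both hold a palindromic motif read by the transcription factor NRF1, a known activator of respiratory chain genes. The sequences are from RefSeq on GRCm38.p6, 250 bases before to 50 bases after the start of the gene, each on the plus strand, and capitals mark GCGCATGCGC. The promoter of Ndufaf4 lies at chr4:24897833-24898132 and that of Ndufaf5 at chr2:140170396-140170695. The promoter of Ndufv3, at chr17:31519865-31520164, is shown beside them for a gene that was lower in the cold in both genotypes.
Ndufaf4: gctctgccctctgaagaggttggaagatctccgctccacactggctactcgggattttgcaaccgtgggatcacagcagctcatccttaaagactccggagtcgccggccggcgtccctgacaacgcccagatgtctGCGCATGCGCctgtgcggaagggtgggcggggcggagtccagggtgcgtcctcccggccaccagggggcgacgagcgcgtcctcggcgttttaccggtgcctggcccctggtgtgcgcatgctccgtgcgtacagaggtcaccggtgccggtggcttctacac
Ndufaf5: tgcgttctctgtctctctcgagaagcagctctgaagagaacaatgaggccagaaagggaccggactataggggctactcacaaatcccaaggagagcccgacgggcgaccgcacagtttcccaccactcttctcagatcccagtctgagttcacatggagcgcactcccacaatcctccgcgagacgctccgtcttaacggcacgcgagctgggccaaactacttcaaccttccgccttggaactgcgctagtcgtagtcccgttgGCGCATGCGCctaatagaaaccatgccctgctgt
Ndufv3: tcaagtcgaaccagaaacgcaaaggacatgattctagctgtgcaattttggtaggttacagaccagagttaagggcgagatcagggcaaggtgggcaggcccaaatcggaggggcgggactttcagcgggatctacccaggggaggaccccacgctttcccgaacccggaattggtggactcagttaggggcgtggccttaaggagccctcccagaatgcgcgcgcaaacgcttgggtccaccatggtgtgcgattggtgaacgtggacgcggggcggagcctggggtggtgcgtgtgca

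The match began 113 bases before the start in Ndufaf4 and at position 16 after it in Ndufaf5, and no match was found in the Ndufv3 window. A promoter was available for 37 of the 42 genes, and both strands were searched. The NRF1 motif, searched as GCGC, any 2 bases and GCGC again, was in 9 of the 37 (24.3%), against 6.23% of 32851 promoters of the same length. Of the 5 genes that were higher in the cold over both genotypes, 4 held it, namely Ndufaf4, Ndufaf5, Ndufab1 and Ndufs5. It was in 2 of the 10 searched among those that were lower, Ndufa6 and Ndufv2, and in 3 of the 22 searched among the rest. The YY1 motif AAGATGGC was in 7 of the 37 promoters (18.9%, against 2.75% of all) and the ETS motif CCGGAAG in 6 (16.2%, against 8.86%). The short cAMP response motif TGACG was in 15 (40.5%, against 20.8%), of which 0 were among the 5 higher, 5 among the 10 lower and 10 among the other 22, and 2 of these, Ndufa10 and Ndufa11, held the full TGACGTCA that contains it. The motif AAGGTCA of oestrogen-related receptors was in 1, Ndufs5 (2.7%, against 4.72%). The 32851 promoters were all entries available, not only those of measured genes, while each of the 37 genes counted once, by its first entry. The motifs were chosen after the values were seen, no test was made, and a match is a description of letters and not of a bound site.

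Cold exposure was compared with room temperature first over both genotypes, which asks how the complex I genes stood after 4 h at 4 °C whatever the genotype. Of the 42 genes, 5 were higher and 11 lower at an adjusted p under 0.05 (limma, Benjamini-Hochberg over 22180 genes), together 38.1% of them, where 27.2% of all genes passed. By direction, the higher calls were 11.9% of the 42 against 12.9% of all genes and the lower calls 26.2% against 14.3%. The median log2 difference was −0.19 over the 42 genes and −0.01 over all genes, and 9 of the 42 lay above 0 (21.4%, against 48.5% of all genes). The called rises were in 3 assembly factors and 2 accessory subunits, while the called falls ran through every class. Of the 16 genes, 9 passed in all 12 fits without a single array, and Ndufs1, Ndufv2, Ndufa3, Ndufa4, Ndufa13, Ndufab1 and Ndufaf8 missed the threshold in at least 1. The count was 13 without KO cold replicate 1 and lowest, at 10, without WT cold replicate 3. These are 31% and 23.8% of the 42, where 6031 and 5220 of all 22180 genes passed. The 8 macrophage markers averaged 6.86, 7.21 and 7.58 in KO cold against 7.12, 7.41 and 7.13 in KO room, which overlap, and 6.88, 7.17 and 7.04 in WT cold against 6.67, 6.29 and 6.50 in WT room, which do not. Of the 8, 3 were called higher over both genotypes and 4 in WT, with none lower. In KO, 2 were called higher and 1 lower, and 5 of the 8 lay below 0. The part of these markers in the cold differences was not tested.

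**Figure D1:**
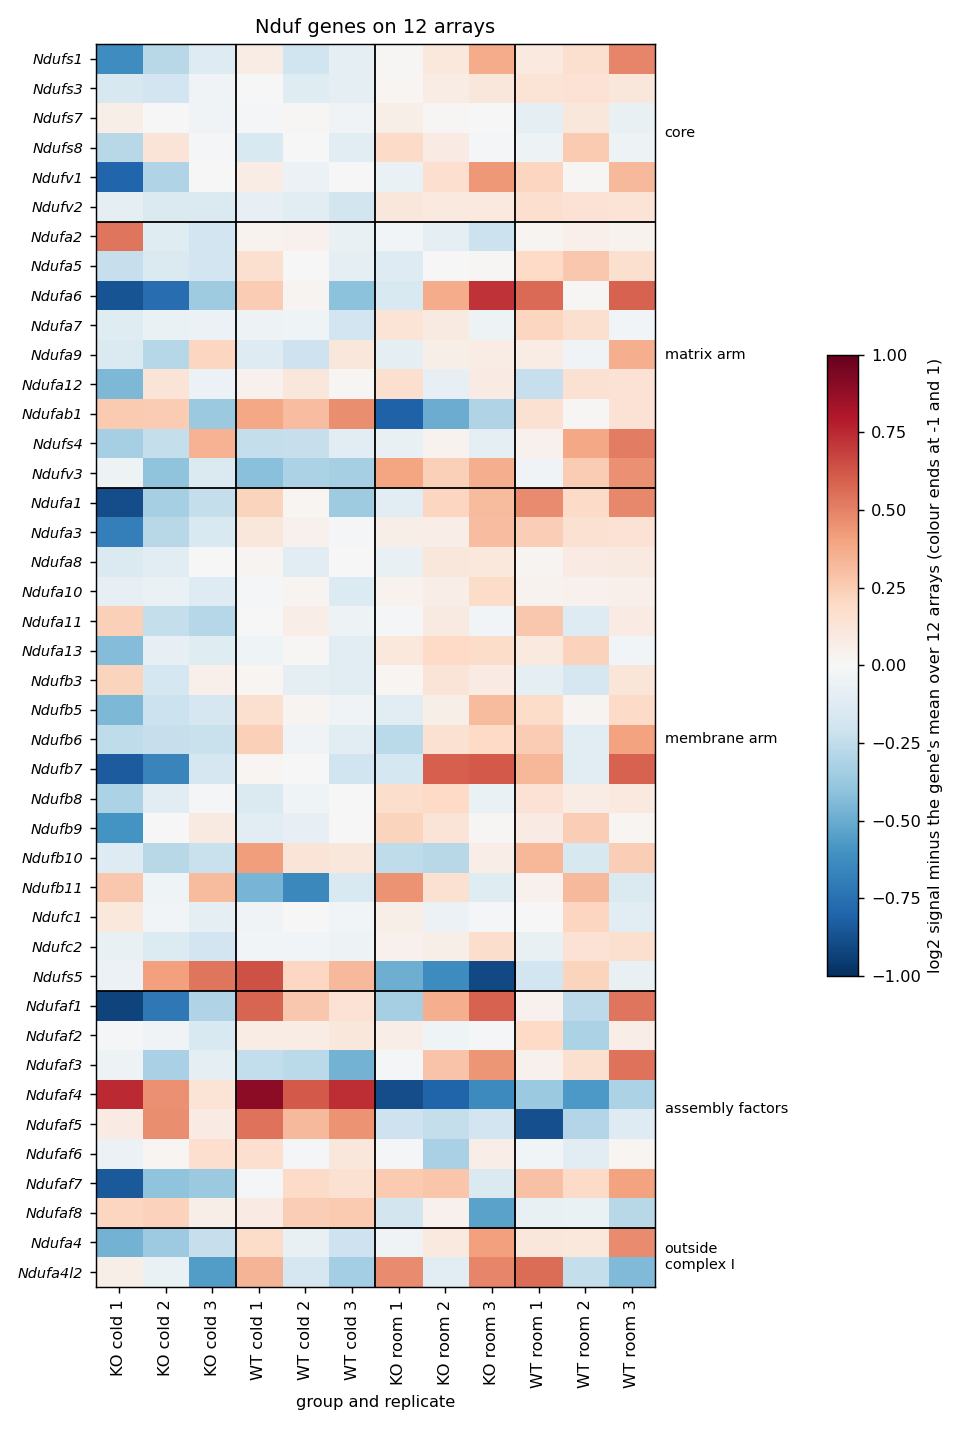
Log2 signal of the 42 Nduf genes (rows, by class) on the 12 arrays (columns, by group and replicate), as the difference from each gene's own mean over the arrays. Ndufaf4 and Ndufaf5 are red on all 6 cold arrays and blue on all 6 room temperature arrays, and KO cold replicate 1 holds the darkest blue for many subunits.

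Over both genotypes the assembly factors had a wider range of cold differences than the subunit classes, from −0.48 to 1.20, but only through Ndufaf4. The next highest, Ndufaf5, rose by 0.65, while the matrix arm ran from −0.70 to 0.43 and the membrane arm from −0.61 to 0.69. Ndufaf4, which acts with Ndufaf3 in building the early ubiquinone-binding part of the matrix arm, had log2 signals of 8.39, 8.10 and 7.78 in KO cold and 8.54, 8.26 and 8.38 in WT cold. At room temperature it had 6.76, 6.84 and 7.01 in KO and 7.27, 7.07 and 7.33 in WT. Every cold array lay above every room temperature array, in either genotype. The difference was 1.20 ± 0.11 (SE) over both genotypes, a 2.29-fold rise (adjusted p = 1.04e-05). It was 1.22 ± 0.16 in KO (adjusted p = 0.000274) and 1.17 ± 0.16 in WT (adjusted p = 0.000425). The call held without each single array in turn and in each other setting tried.

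Ndufaf5, which in human cells hydroxylates an arginine of the core subunit NDUFS7, had 5.64, 6.02 and 5.65 in KO cold and 5.35, 5.33 and 5.37 in KO room. It had 6.10, 5.88 and 6.01 in WT cold and 4.68, 5.27 and 5.43 in WT room. Cold and room arrays did not overlap in either genotype, and WT room replicate 1 was the lowest of all. The difference was 0.42 in KO, which did not pass, and 0.87 ± 0.18 in WT (adjusted p = 0.00589), which passed without each single array. Over both genotypes it was 0.65 ± 0.13 (adjusted p = 0.0023). Ndufaf8, the partner that stabilises NDUFAF5 in human cells, had 6.93, 6.95 and 6.77 in KO cold, 6.79, 6.96 and 6.98 in WT cold, 6.53, 6.76 and 6.18 in KO room and 6.64, 6.65 and 6.44 in WT room. Its rise over both genotypes was 0.36.

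Ndufaf3, the partner of Ndufaf4, was lower in the cold. It had 7.94, 7.67 and 7.89 in KO cold, 7.74, 7.72 and 7.52 in WT cold, 7.98, 8.27 and 8.43 in KO room and 8.03, 8.15 and 8.53 in WT room, with no cold array above the lowest room temperature array. Its difference was −0.48 ± 0.12 over both genotypes (adjusted p = 0.00724), while that of Ndufaf4 was 1.20, so these 2 partners were called in opposite directions. Within WT the Ndufaf3 difference was −0.58 (adjusted p = 0.0295). It missed the threshold in 5 of the 12 fits without a single array, with an adjusted p of up to 0.113, and with the skeletal muscle mean as a covariate. Ndufaf7, a methyltransferase that acts in complex I assembly, differed by −0.43 ± 0.11 over both genotypes (adjusted p = 0.0134). Ndufaf6, needed early in assembly, and Ndufaf2, a relative of Ndufa12 that acts late, did not pass in any comparison, and Ndufaf2 was dim, with a mean log2 signal under 5.

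**Figure D2:**
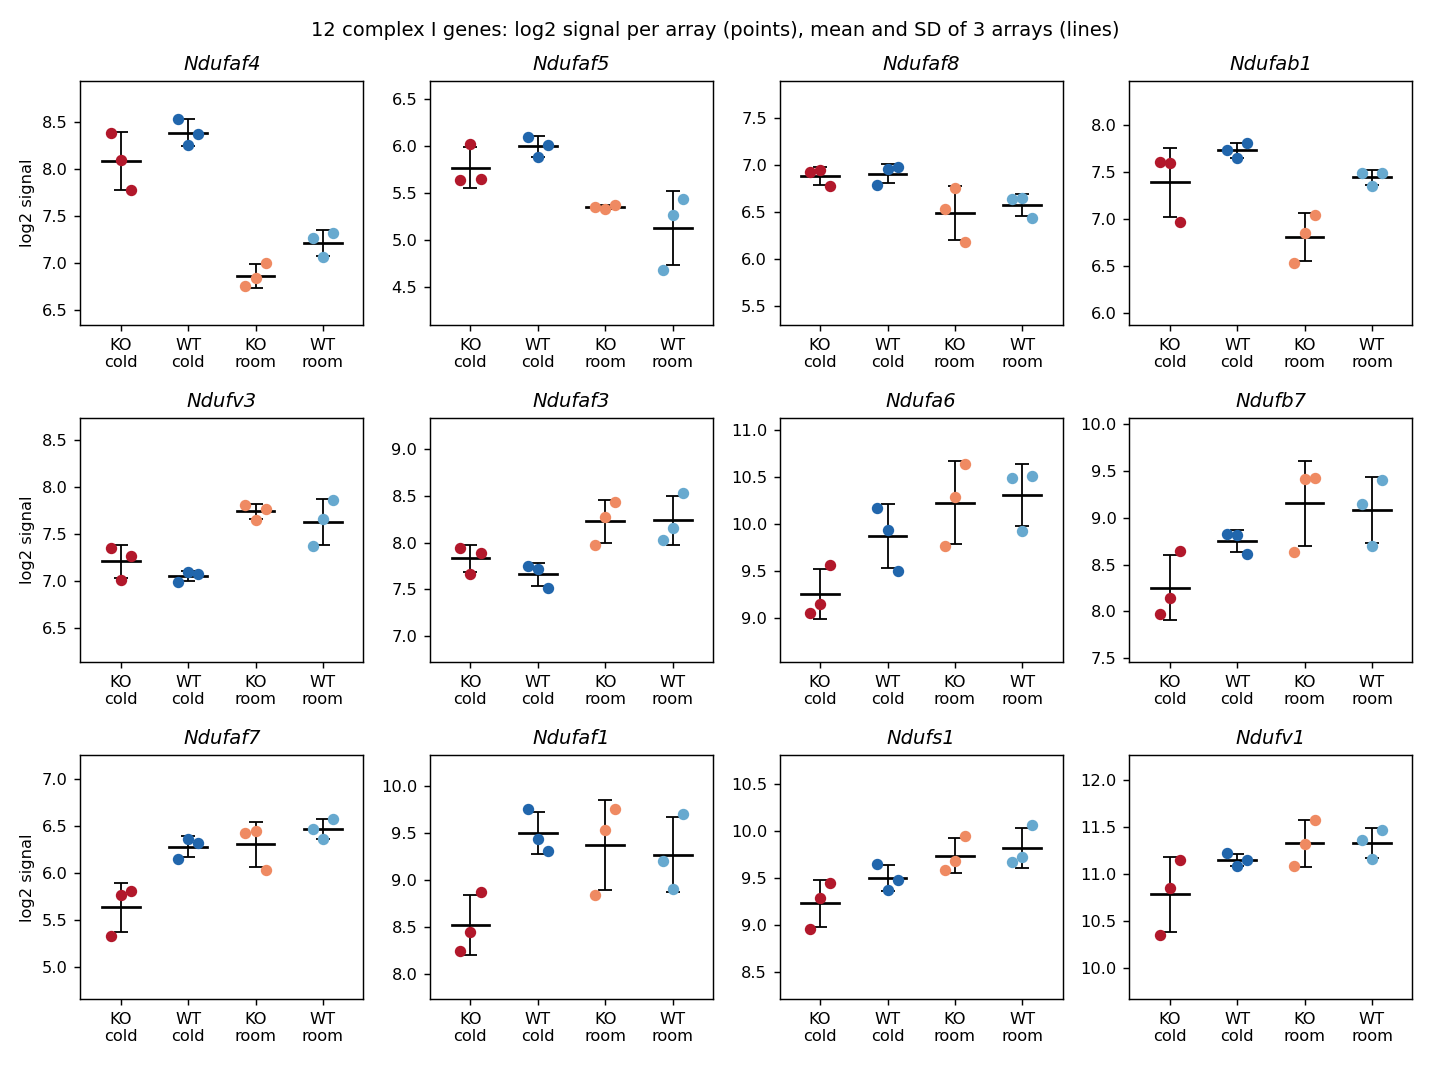
Log2 signal of 12 complex I genes in KO cold, WT cold, KO room and WT room, 1 point per array, with the mean and SD of 3 arrays as lines and axes of equal length. The cold points of Ndufaf4 and Ndufaf5 lie above the room points, those of Ndufv3 and Ndufaf3 lie below them, and the 3 KO cold points of Ndufaf1 and Ndufaf7 lie below the 3 WT cold points.

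Among the core subunits, 0 were called higher and 2 lower of 6 over both genotypes, where 12.9% of all genes were called higher and 14.3% lower. Ndufs1, the largest iron-sulphur subunit, had 8.95, 9.29 and 9.44 in KO cold, 9.64, 9.37 and 9.48 in WT cold, 9.59, 9.68 and 9.94 in KO room and 9.67, 9.73 and 10.06 in WT room. The highest cold array was above the lowest room temperature array only through WT cold replicate 1. Its difference was −0.41 ± 0.12 (adjusted p = 0.0187). Ndufv2, an iron-sulphur subunit beside the NADH site, ranged from 11.10 to 11.20 over the 6 cold arrays and from 11.38 to 11.45 over the 6 room temperature arrays. The ranges did not touch, though the difference was −0.25 ± 0.07 (adjusted p = 0.0186). Ndufv1, which binds NADH and the flavin, had 10.35, 10.85 and 11.14 in KO cold against 11.08, 11.31 and 11.57 in KO room, and 11.22, 11.08 and 11.14 in WT cold against 11.36, 11.15 and 11.46 in WT room. Its groups overlapped in both genotypes and its difference of −0.36 did not pass. Ndufs3 (−0.20) and Ndufs8 (−0.14) did not pass either, and Ndufs7, an iron-sulphur subunit next to ubiquinone, differed by −0.01, with a 95% interval from −0.17 to 0.16.

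In the matrix arm, 1 of the 9 accessory subunits was called higher and 2 lower, where 12.9% and 14.3% of all genes were. Ndufab1, the mitochondrial acyl carrier protein that also serves fatty acid synthesis, had 7.60, 7.59 and 6.97 in KO cold, 7.73, 7.65 and 7.80 in WT cold, 6.53, 6.85 and 7.04 in KO room and 7.49, 7.35 and 7.48 in WT room. The WT cold arrays were all above the WT room arrays, and in KO the cold replicate 3 fell within the room range. Its difference was 0.43. Ndufa6, a LYR protein that holds Ndufab1 on the complex, went the other way, by −0.70 ± 0.18 (adjusted p = 0.01). It had 9.05, 9.15 and 9.56 in KO cold, 10.17, 9.94 and 9.50 in WT cold, 9.76, 10.28 and 10.64 in KO room and 10.49, 9.93 and 10.51 in WT room, so the KO groups were apart and the WT groups overlapped. Ndufv3, a small subunit at the NADH end, had 7.36, 7.01 and 7.27 in KO cold, 6.99, 7.10 and 7.08 in WT cold, 7.81, 7.65 and 7.77 in KO room and 7.37, 7.66 and 7.87 in WT room. The cold arrays were below the room arrays of their own genotype. Its difference was −0.55 ± 0.10 (adjusted p = 0.0013). The other 6 lay between −0.27 for Ndufs4 and 0.07 for Ndufa2 and did not pass.

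In the membrane arm, 1 of the 17 accessory subunits was called higher and 4 lower, where 12.9% and 14.3% of all genes were. Ndufb7, on the intermembrane face, had 7.98, 8.15 and 8.64 in KO cold, 8.83, 8.81 and 8.61 in WT cold, 8.63, 9.41 and 9.42 in KO room and 9.14, 8.70 and 9.40 in WT room. Cold and room arrays overlapped in both genotypes. Its difference was −0.61 ± 0.17 (adjusted p = 0.0189), and with the skeletal muscle mean as a covariate it was −0.49 and did not pass (adjusted p = 0.0609). The other 3 that fell were the small membrane subunit Ndufa1, by 0.52, Ndufa3, by 0.33, and Ndufa13, also known as GRIM-19, by 0.26, all on the log2 scale. The 12 that did not pass lay between −0.24 for Ndufb11 and 0.01 for Ndufb10. Ndufs5, also on the intermembrane face, was the exception with a rise of 0.69, but it was dim, from 4.09 to 4.79 on the cold arrays and from 3.25 to 4.37 on the room arrays. Outside complex I, Ndufa4 differed by −0.39, and Ndufa4l2, a relative induced by hypoxia, was dim and did not pass in any comparison.

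For 3 genes a second probe set with 1 symbol existed, for Ndufa8, Ndufa11 and Ndufa12, and neither probe set of any of them passed in any comparison. Within a single genotype the cold comparison called fewer of the genes. In KO, 12 of the 42 passed, 3 higher and 9 lower, which is 28.6% against 19.2% of all genes (8.34% higher and 10.8% lower). In WT, 4 of the 42 passed, 2 higher and 2 lower, which is 9.52% against 17.4% of all genes (9.39% higher and 7.98% lower). The median difference was −0.18 in KO and −0.14 in WT, where all genes had 0.00 and −0.02. Genes with cold and room arrays fully apart numbered 20 in KO (47.6%, against 31.6% of all genes) and 19 in WT (45.2%, against 36.8%), and of these 16 in KO and 15 in WT were lower in the cold, where 17.2% and 18% of all genes were.

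The 4 genes called in WT were Ndufaf4, Ndufaf5, Ndufv3 and Ndufaf3. Without WT cold replicate 1, or without WT room replicate 3, 2 were called, Ndufaf4 and Ndufaf5. The 2 are 4.76% of the 42, where 2708 and 3274 of all 22180 genes passed. The 12 called in KO were Ndufaf4, Ndufs5 and Ndufab1, which rose, and Ndufa6, Ndufb7, Ndufaf1, Ndufaf7, Ndufa1, Ndufv3, Ndufa3, Ndufa4 and Ndufs1, which fell. Ndufa6 fell by 0.97 and Ndufb7 by 0.90 in KO, both called, while their differences in WT were −0.43 and −0.33. Ndufaf1, which belongs to the complex that builds the membrane arm, fell by 0.85 in KO (adjusted p = 0.0392) and differed by 0.23 in WT. Ndufaf7 fell by 0.67 in KO (adjusted p = 0.0113) and differed by −0.19 in WT.

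The KO count rested on single arrays. It was 4 without KO cold replicate 1 (Ndufaf4, Ndufaf7, Ndufs5 and Ndufv3), without KO cold replicate 2 or without KO room replicate 3. The 4 are 9.52% of the 42, where 3805, 3478 and 3388 of all 22180 genes passed. It was 5 (11.9%) without KO room replicate 2, where 3200 of all genes passed. Without WT room replicate 1 or WT cold replicate 2 it was 7 (16.7%), where 4098 and 3888 of all genes passed. Only Ndufaf4 and Ndufs5 passed in all 12 fits without a single array. With each array centred on its median, which moved the median of all genes in KO to 0.08, 4 genes were called higher and 3 lower in KO, and 5 higher and 7 lower over both genotypes. These calls are 16.7% and 28.6% of the 42, where 4017 and 5784 of all 22180 genes passed. Both genotypes called Ndufaf4 and Ndufv3, which is 50% of the WT calls and 16.7% of the KO calls. The size of the difference was larger in KO than in WT for 29 of the 42 genes, where 51.7% of all genes had a larger size in KO.

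**Figure D3:**
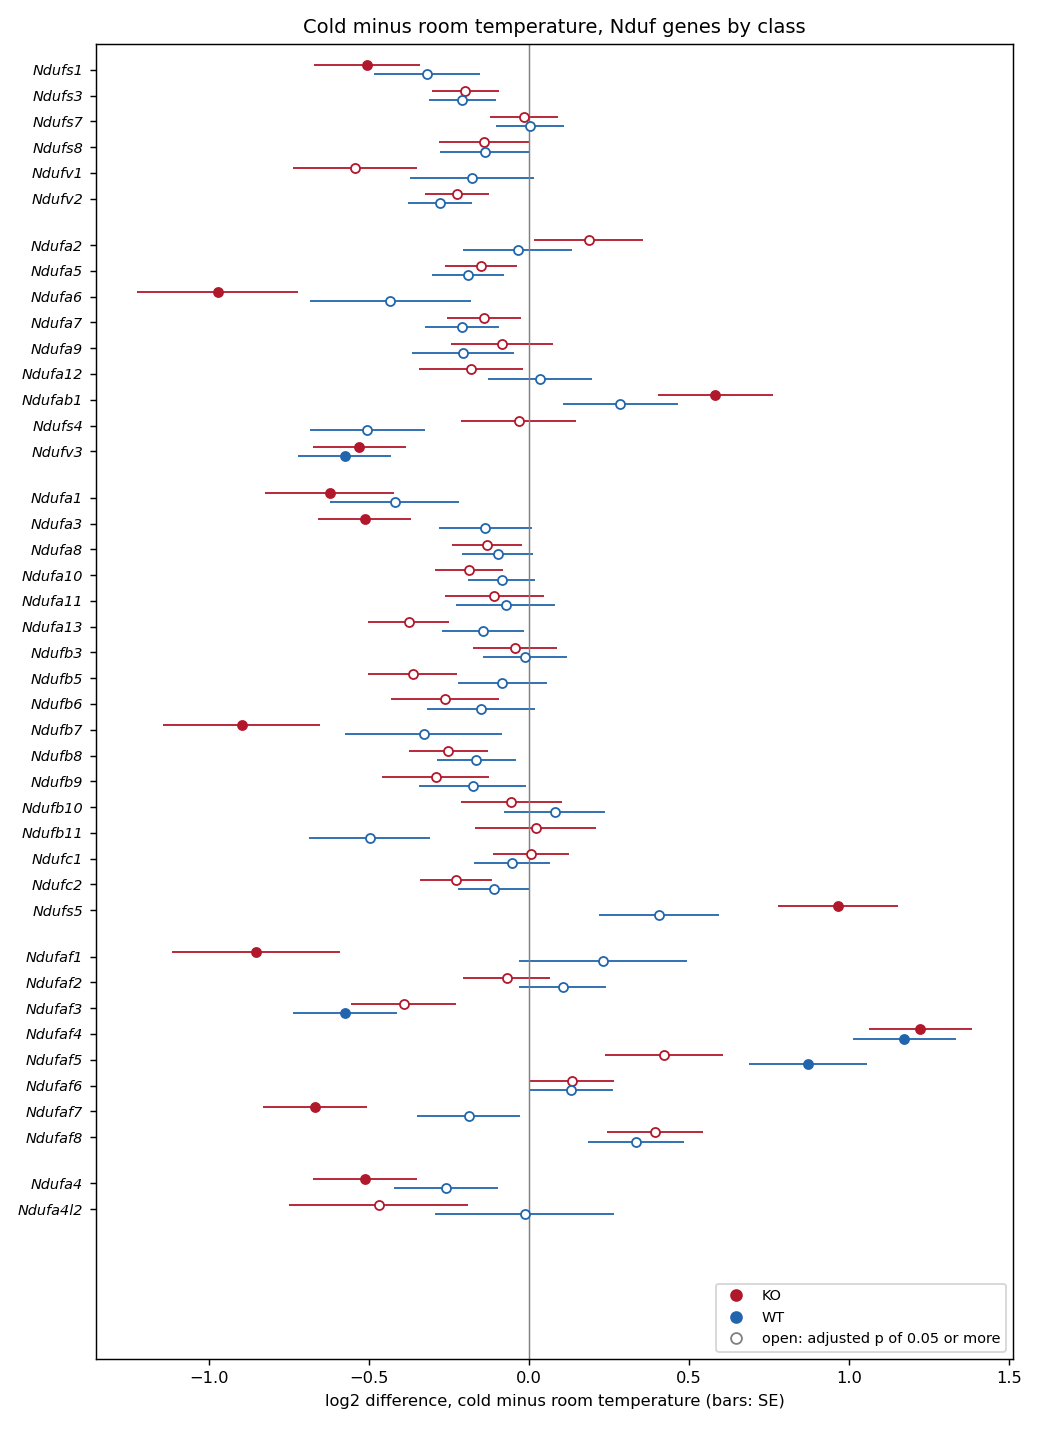
Log2 difference of cold minus room temperature for each Nduf gene, by class, in KO (red) and WT (blue), with bars of 1 SE. Filled points passed an adjusted p of 0.05: 12 in KO and 4 in WT. Ndufaf4 lies at 1.22 and 1.17, while most subunits lie left of 0 in both genotypes.

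The comparison of KO with WT asks whether loss of Zbtb7b altered these genes. None of the 42 was called in the cold, where 0.911% of all genes passed in limma, and 8 had an unadjusted p under 0.05 (19%, against 14.4% of all genes). At room temperature 0 were called, where 0.55% of all genes passed, and 4 had an unadjusted p under 0.05 (9.52%, against 11.4%). Over both temperatures 0 were called, where 1.63% of all genes passed, and 10 had an unadjusted p under 0.05 (23.8%, against 14.7%). The median difference was −0.10 in the cold, −0.04 at room temperature and −0.06 over both, where all genes had 0.01, 0.01 and 0.00. Over both temperatures 8 of the 42 lay above 0 (19%, against 50.7% of all genes). At room temperature the 8 macrophage markers averaged 7.12, 7.41 and 7.13 in KO against 6.67, 6.29 and 6.50 in WT, and the 8 brown adipocyte markers 8.82, 8.72 and 8.45 in KO against 9.48, 9.57 and 9.50 in WT. Both list means were fully apart by genotype there. Among the single brown adipocyte markers, KO minus WT ran from −3.55 to 0.18 with a median of −0.20, and 3 of the 8 were called lower. The part of either list in these differences was not tested.

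Some KO and WT arrays were nevertheless fully apart. In the cold this held for 12 genes, 28.6% against 20.6% of all genes, and 11 of them were lower in KO (26.2%, against 11.1%) and 1 higher (2.38%, against 9.55%). At room temperature it held for 7, all lower in KO (16.7%, against 7.97%). Ndufaf1 had 8.24, 8.44 and 8.87 in KO cold and 9.75, 9.43 and 9.31 in WT cold. These groups were separate, and the difference was −0.98 with a 95% interval from −1.55 to −0.41 and an adjusted p of 0.109. Without KO cold replicate 1 it was −0.84 (adjusted p = 0.216). At room temperature its KO arrays, at 8.83, 9.53 and 9.75, overlapped the WT arrays, at 9.20, 8.90 and 9.70.

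Ndufaf7 had 5.33, 5.77 and 5.81 in KO cold against 6.15, 6.37 and 6.33 in WT cold, with every KO array below every WT array. Its difference was −0.64 (95% interval −0.996 to −0.29, adjusted p = 0.0903), and with genes under a mean log2 signal of 5 removed it passed, at an adjusted p of 0.0413. Without KO cold replicate 1 the difference was −0.49 (adjusted p = 0.166). At room temperature it had 6.43, 6.45 and 6.03 in KO and 6.47, 6.37 and 6.58 in WT, which overlap. Ndufb11, a membrane arm subunit encoded on the X chromosome, was the 1 gene fully higher in KO cold, at 6.31, 5.99 and 6.35 against 5.57, 5.39 and 5.88 in WT cold, with a difference of 0.61 (adjusted p = 0.165). Ndufa6 differed by −0.62 in the cold (95% interval −1.17 to −0.07, adjusted p = 0.284). Without KO cold replicate 1, Ndufb11 differed by 0.56 and Ndufa6 by −0.52.

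Ndufab1 was the gene nearest to the threshold at room temperature. Its KO room arrays, from 6.53 to 7.04, lay below its WT room arrays, from 7.35 to 7.49, and the difference was −0.64 (95% interval −1.03 to −0.24, adjusted p = 0.166). Over both temperatures it was −0.49 (adjusted p = 0.0811), and with genes under a mean log2 signal of 5 removed it passed, at 0.0383, as did Ndufaf7 at 0.0484. The Ndufaf4 difference at room temperature was −0.35, with the KO arrays all below the WT arrays, and did not pass (adjusted p = 0.436). Ndufs4, an accessory subunit whose loss in mice causes a disease like Leigh syndrome, had 11.40, 11.52 and 11.39 in KO room against 11.52, 11.87 and 11.99 in WT room. Its difference was −0.36 at room temperature (adjusted p = 0.487). Ndufb3, a membrane arm subunit, had a room temperature difference of 0.12 and was not called. Among core subunits the genotype differences were small at room temperature, between −0.08 and 0.04, and in the cold they ran from −0.37 for Ndufv1 to 0.03 for Ndufs8. KO cold replicate 1 was the lowest array for Ndufv1, whose difference was −0.15 without it.

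**Figure D4:**
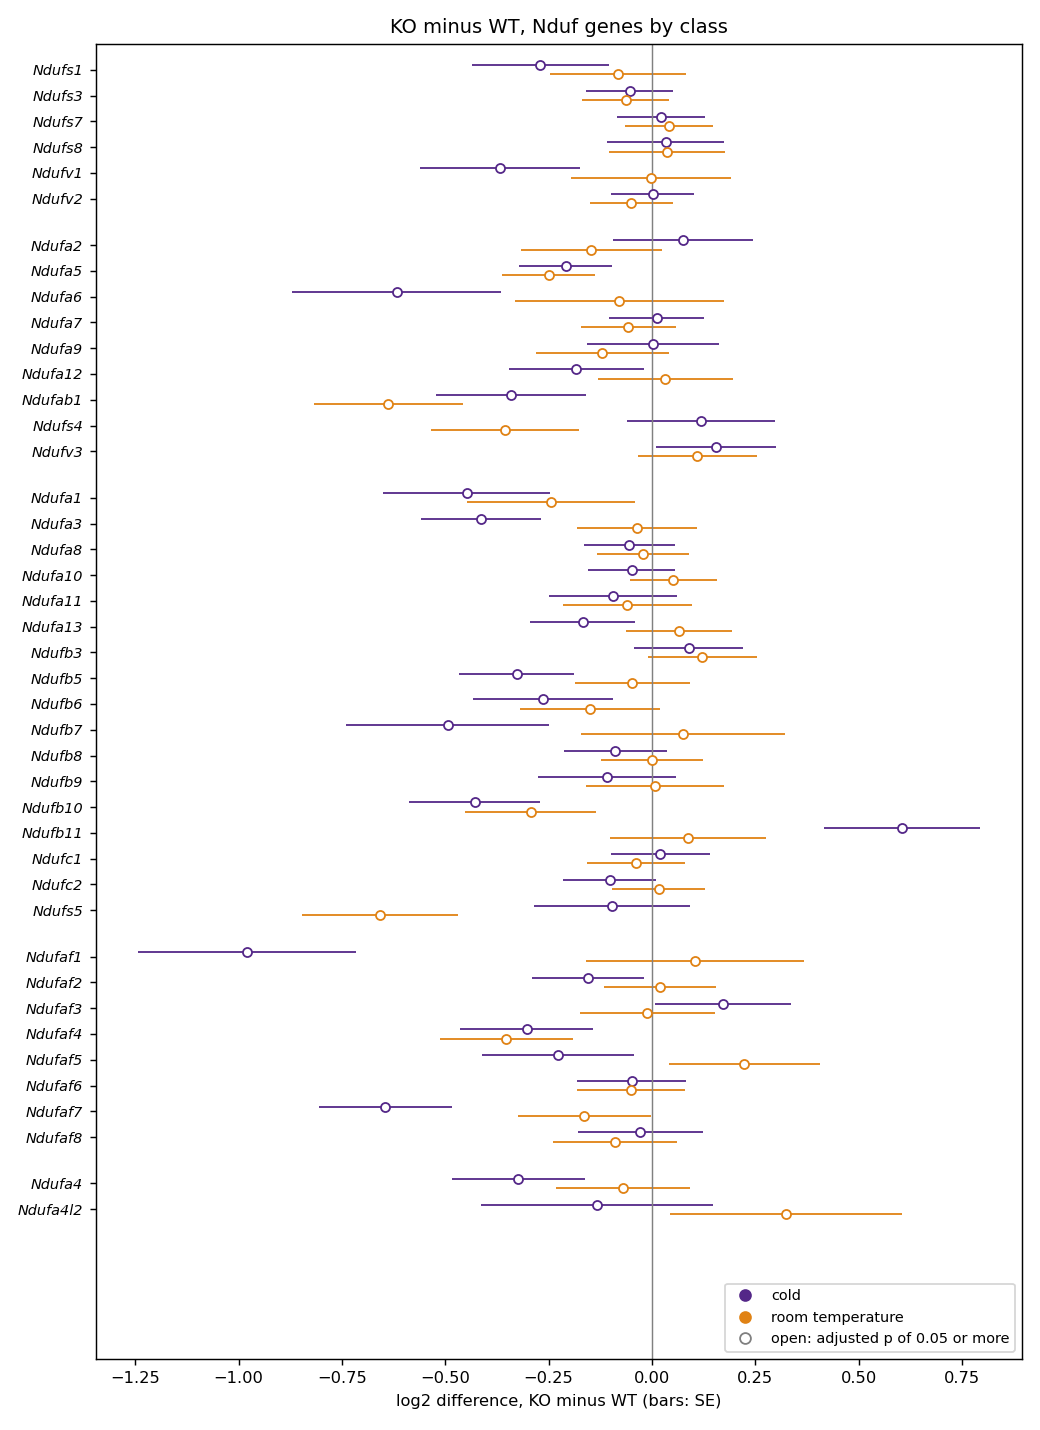
Log2 difference of KO minus WT for each Nduf gene, by class, in the cold (purple) and at room temperature (orange), with bars of 1 SE. All points are open because 0 passed an adjusted p of 0.05, and Ndufaf1 in the cold is farthest from 0, at −0.98.

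The interaction of genotype and temperature, the cold difference in KO minus that in WT, called 0 of the 42 genes, where 0.0271% of all genes passed in limma. An unadjusted p under 0.05 was reached by 1, Ndufaf1 (2.38%, against 10.5% of all genes). Its interaction was −1.08 with a 95% interval from −1.90 to −0.27 (adjusted p = 0.356), and −0.95 without KO cold replicate 1. For Ndufaf4 the interaction was 0.05 (95% interval −0.45 to 0.55), and without that array it turned to −0.10. A difference between the genotypes in their cold response was thus not shown for any of these genes, including those called in KO and not in WT.

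**Figure D5:**
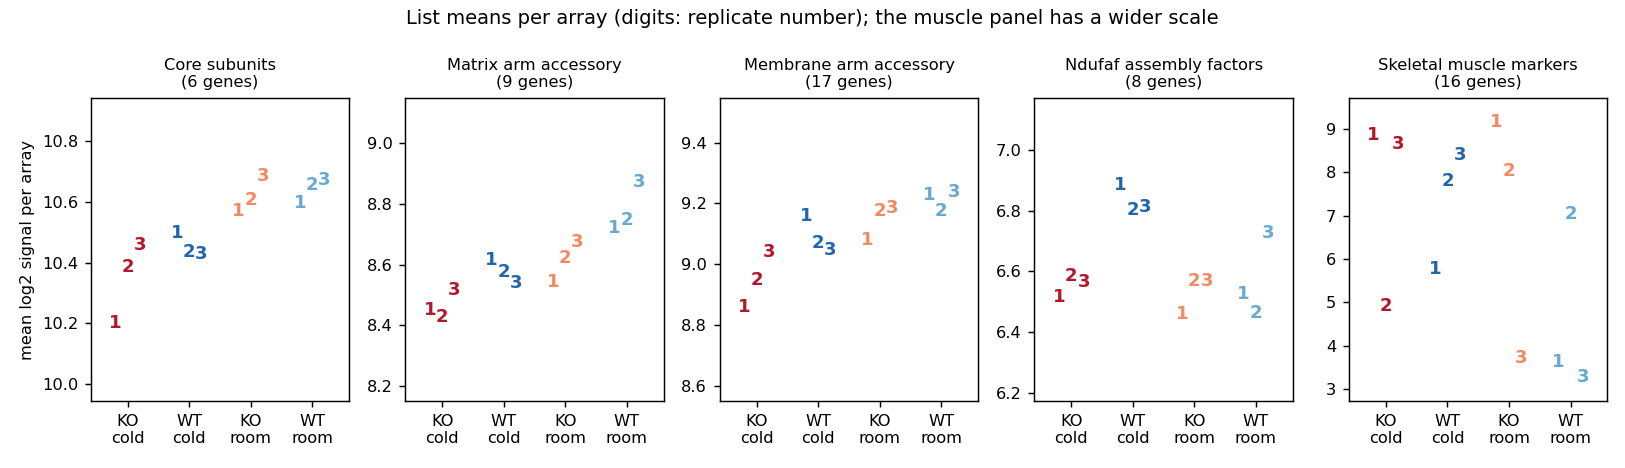
Mean log2 signal per array (digits are replicate numbers) of the core subunits, the matrix arm and membrane arm accessory subunits, the Ndufaf assembly factors and, on a wider scale, the skeletal muscle markers, by group. Core subunits lie between 10.20 and 10.50 on the cold arrays and between 10.57 and 10.68 on the room temperature arrays, and the muscle markers spread from 3.28 to 9.15 within and across groups.

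The 6 core subunits averaged 10.20, 10.39 and 10.46 in KO cold, 10.50, 10.44 and 10.43 in WT cold, 10.57, 10.61 and 10.68 in KO room and 10.60, 10.66 and 10.67 in WT room. All cold arrays were below all room temperature arrays, and KO cold replicate 1 was the lowest. The 8 assembly factors averaged 6.52, 6.58 and 6.57 in KO cold, 6.88, 6.80 and 6.81 in WT cold, 6.46, 6.57 and 6.57 in KO room and 6.53, 6.46 and 6.73 in WT room. For them the WT cold arrays stood above the other 9. With the skeletal muscle mean per array as a covariate, 12 of the 42 genes were called in KO, 4 in WT and 11 over both genotypes. These are 28.6%, 9.52% and 26.2% of the 42, where 4344, 3653 and 5651 of all 22180 genes passed. Over both genotypes, Ndufa3, Ndufa4, Ndufa13, Ndufaf8, Ndufb7 and Ndufs1 no longer passed. In WT, Ndufaf3 no longer passed, so the 4 were not the same genes as without the covariate.

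Of 12 measured complex I assembly factors that are not named Nduf, 1 was called higher and 6 lower in the cold over both genotypes, where 12.9% of all genes were called higher and 14.3% lower. Acad9, which works with Ndufaf1 on the membrane arm and is related to acyl-CoA dehydrogenases, had 6.16, 6.21 and 6.67 in KO cold, 6.73, 6.68 and 6.53 in WT cold, 7.11, 7.19 and 7.43 in KO room and 7.26, 7.17 and 7.49 in WT room. All cold arrays lay below all room temperature arrays, and the difference was −0.78 ± 0.11 (adjusted p = 0.000224). The others that fell were Lyrm2 (−0.59), Tmem126b (−0.48), Nubpl (−0.35), which supplies iron-sulphur clusters, Dmac1 (−0.34) and Tmem70 (−0.26), and Dmac2 rose by 0.39. Tmem70 and Dmac2 each missed the threshold in 9 of the 12 fits without a single array, and Nubpl in 4.

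Tmem126b, a further partner of Ndufaf1, was the 1 gene of this group called between genotypes, in the cold, with 5.93, 5.92 and 5.62 in KO and 6.39, 6.37 and 6.70 in WT. The groups did not overlap and the difference was −0.66 (adjusted p = 0.0468). That call was lost in each of the 12 fits without a single array, with an adjusted p of up to 0.174. Other partners in that assembly complex, Ecsit, Timmdc1 and Tmem186, had cold genotype differences of −0.26, −0.79 and −0.54, none called. Timmdc1 spanned 7.28 to 8.40 in KO cold against 8.66 to 8.74 in WT cold, and Tmem186 5.38 to 5.81 in KO cold against 6.12 to 6.24 in WT cold, so both were fully apart. Without KO cold replicate 1 the differences were −0.12 for Ecsit, −0.49 for Timmdc1 and −0.60 for Tmem186. Foxred1 and Tmem126a differed by 0.02 and −0.32 in the cold and were not called in any comparison.

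For the other respiratory complexes, the cold comparison over both genotypes called 3 lower of 7 for complex II and 0 of 8 for complex III. It called 1 higher and 4 lower of 13 for complex IV, and 1 higher and 2 lower of 15 for ATP synthase. Of all genes, 12.9% were called higher and 14.3% lower. An unadjusted p under 0.05 was reached by 1 of the 8 genes of complex III, against 7933 of all 22180 genes. The medians for complexes II, III and IV and ATP synthase were −0.25, −0.12, −0.12 and −0.16. The core, matrix arm and membrane arm subunits of complex I had −0.23, −0.17 and −0.21, and no difference between complexes was tested. The complex II list holds more genes than that complex has subunits, so its count and median are not those of subunits alone. Ppargc1a, a coactivator of respiratory chain genes, rose by 3.0 in KO and 2.3 in WT, and Ucp1 by 1.06 in KO, while its difference of 0.36 in WT did not pass.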

How the data were processed

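The authors deposited log2 signals per probe set, made with RMA, and oligo and limma are also named, per the submitters' processing notes. The array design and versions are not given in the sources used here. Groups came from the titles and characteristics, and 400 ng of total RNA was labelled per array, per the labels' protocols. Of 41345 probe sets, 23521 carried 1 gene symbol, and the brightest of each gene gave 22180 genes, dim genes included. With limma 3.58.1 under R 4.3.3, a model with the 4 group means was fitted to the 12 arrays with eBayes. Tested on simulated data, its estimates were close to the changes put in, but many genes changed by 1 on the log2 scale were not called, so a count of 0 does not show that genes were equal. Tests were two-sided, adjusted by Benjamini-Hochberg over all genes of a comparison. The 3 arrays per group limit the precision.

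Members, lists, settings and naming rules were chosen with earlier results of these data known. Named were the core subunits, every Ndufaf gene, every called gene, the 3 largest rises and falls of each comparison with a mean signal of at least 5, Ndufa4, Ndufa4l2, Zbtb7b, Ucp1, Ppargc1a and the other assembly factors. Ndufa8, Ndufa10, Ndufa11 and Ndufa12 were named for their promoters or second probe sets.

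Replicate numbers were not taken as pairs, since the deviations of same-numbered arrays correlated between −0.22 and 0.26. The alternatives were every probe set alone, averaged probe sets, a mean signal of at least 5, cyclic loess, median centring, a trended robust spread, the 6 arrays of a comparison, the replicate number as a block, the skeletal muscle mean as a covariate, and 12 fits without 1 array each.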

Additional observations from a re-analysis of the deposited data

How the results depend on the processing

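Of 654 recomputed values of the genes called in the 3 cold comparisons, 0 changed direction and 128 lost the call. Among differences that were not called, some turned without KO cold replicate 1: KO against WT in the cold was −0.16 for Ndufa2, 0.10 for Ndufb9 and 0.08 for Ndufs5, where all 12 arrays gave 0.07, −0.11 and −0.10. Leaving out 1 array at a time gave 2 to 5 called genes for cold against room temperature in WT, 4 to 13 in KO and 10 to 19 over both genotypes, the lowest of these without WT cold replicate 3, and 0 for KO against WT and for the interaction. The median over the 42 genes in these fits ran from −0.16 to −0.09 for KO against WT in the cold, −0.07 to −0.02 at room temperature and −0.10 to −0.04 for the interaction.

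With genes under a mean log2 signal of 5 removed, which tests fewer genes, KO against WT called 1 gene in the cold and 2 over both temperatures, and the cold comparison in WT called 7. Among all genes kept, 397, 613 and 3691 passed. With arrays centred on their medians, the cold comparison in KO called 7 genes (16.7%), where 4017 of all 22180 genes passed. Its median was −0.11, where all genes had 0.08. KO against WT at room temperature had a median of −0.13 and all genes −0.07, beside −0.04 and 0.01 uncentred. The interaction had a median of 0.0415 and all genes 0.0916, beside −0.06 and −0.01 uncentred. Centring shifts every gene of an array by the same amount, so the medians of the 42 and of all genes moved together. With the 6 arrays of the comparison alone, which has fewer samples, 3 genes (7.14%) were called in KO, where 2737 of all 22180 genes passed. The replicate number as a block gave 9 calls in KO, 4 in WT and 15 over both genotypes for cold, and 0 for KO against WT. Of all genes, 4072, 3660 and 5884 passed in these cold comparisons. Precision is limited by the 3 arrays per group, and 4 of the 42 genes (Ndufa4l2, Ndufa5, Ndufaf2 and Ndufs5) had a mean log2 signal under 5.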
